A study of Mus musculus with 12 samples.

Results

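The genes described here are those that were lower in old than in young hematopoietic stem cells (HSCs) without any overlap between libraries. HSCs self-renew in the bone marrow and give rise to every blood lineage. A gene belonged to the set when its highest level in the 6 old libraries lay below its lowest level in the 6 young libraries and its mean in the young libraries was at least 5 FPKM (fragments scaled to transcript length and to the mapped fragments of the library). Of 14143 genes in the deposited table, 36 met these conditions. Slc26a11 and Dtnbp1 were set aside by name, as were Nes, Ptpn7 and Ide, which did not meet the conditions. The remaining 34 genes form the set.

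The libraries came from female C57BL6J mice of 18 months (old) or 8 to 10 weeks (young), an upper age that the labels' protocol gives as 12 weeks. Cells lacking lineage markers were sorted as Sca-1 positive, c-kit positive, CD48 negative and CD135 negative, and split by CD150 into a low fraction of lymphoid-biased HSCs (Ly-HSCs) and a high fraction of myeloid-biased HSCs (My-HSCs). Each of the 4 groups (young Ly-HSCs, young My-HSCs, old Ly-HSCs and old My-HSCs) held 3 libraries, from 3 independent groups of mice of each age. The labels name no transgene and no treatment. The Ly-HSC and My-HSC libraries of an age may come from the same mice, so the 6 libraries of an age are not 6 independent samples.

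The members were chosen by their old and young FPKM values, so the age difference is given below as a description without a test. Of the 8133 genes with a mean of at least 5 FPKM in the young libraries, 0.443% were lower in every old library. In the opposite direction, 1.2% of the 8405 genes with a mean of at least 5 FPKM in the old libraries were higher in every old library, or 101 genes. A total of 10900 genes reached 1 FPKM in at least 3 libraries, all 34 members included. Their median of old minus young on the log2(FPKM + 1) scale was 0.13, against -0.54 among the members. Among those with a mean young level of at least 5 FPKM, as the rule asks, the median was 0.061. After quantile normalization the medians were 0.0057 over the 10900 genes and -0.54 among the members. The bulk libraries cannot tell fewer cells with a transcript from less transcript in each cell.

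With age, HSCs are known to increase in number, to contribute less to lymphoid lineages and to lose regenerative capacity per cell. They are held in a resting state by feedback on cytokine signals, by a low-oxygen program and by chromatin complexes that keep lineage genes poised. Co-activators such as Mediator and the acetyltransferase CREB-binding protein link transcription factors to RNA polymerase II. BAF complexes move nucleosomes, and ASXL proteins act with a histone H2A deubiquitinase. Mutations of ASXL1 are frequent in the clonal hematopoiesis of older people.

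HSC markers were present in every library. Of 10 HSC markers, 9 had values, with a summed level of 272 to 397 FPKM in young Ly-HSCs, 382 to 434 in young My-HSCs, 286 to 320 in old Ly-HSCs and 439 to 460 in old My-HSCs. Summed multipotent progenitor markers were 57.1 to 83.7 and 44.3 to 63.1 FPKM in young and old Ly-HSCs, and 9.91 to 23.7 and 11.7 to 13.5 FPKM in young and old My-HSCs. Old libraries numbered 1 stood apart in markers of other cells. Of 10 granulocyte markers, 2 had values (Itgam and Mmp9), with sums of 0.369 to 33.0 FPKM in young Ly-HSCs, 0 to 6.73 in young My-HSCs, 19.8 to 227 in old Ly-HSCs and 21.5 to 194 in old My-HSCs, the highest in both subsets being library 1. The 6 of 7 monocyte and macrophage markers with values summed to 0.047 to 0.904, 0.678 to 3.33, 1.82 to 46.3 and 3.19 to 26.4 FPKM in the same order. The 5 of 8 erythroid markers summed to 13.2 to 14.4, 9.51 to 24.1, 17.9 to 80.2 and 12.6 to 68.8 FPKM, and the 8 of 10 cell cycle markers to 18.7 to 40.5, 21.2 to 48.2, 41.2 to 153 and 35.3 to 81.4 FPKM. The 4 of 7 megakaryocyte markers with values went the other way in Ly-HSCs, where they summed to 203 to 254 FPKM in the young and 109 to 187 FPKM in the old, lowest in library 1, while My-HSCs overlapped at 203 to 243 and 167 to 228 FPKM. No marker of these 5 lists that had a value was at 0 in all 12 libraries. The part of these other cells in the age differences was not tested, and values without the libraries numbered 1 are given below.

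Across the 34 genes, the mean young level was 1.21 to 2.78 times the mean old level, with a median of 1.498. Hif3a and Socs2 exceeded 2 times, 14 genes lay between 1.5 and 2 times, and 18 lay below 1.5 times. The separation between the ages was narrow. The lowest young value exceeded the highest old value by 0.194% to 15.6%, with a median of 5.53%, and by less than 5% in 16 genes. None of the 34 genes was at 0 in any library, and mean young levels ran from 7.06 FPKM (Socs2) to 199 FPKM (Arid4a), with a median of 41.8 FPKM.

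**Figure D1:**
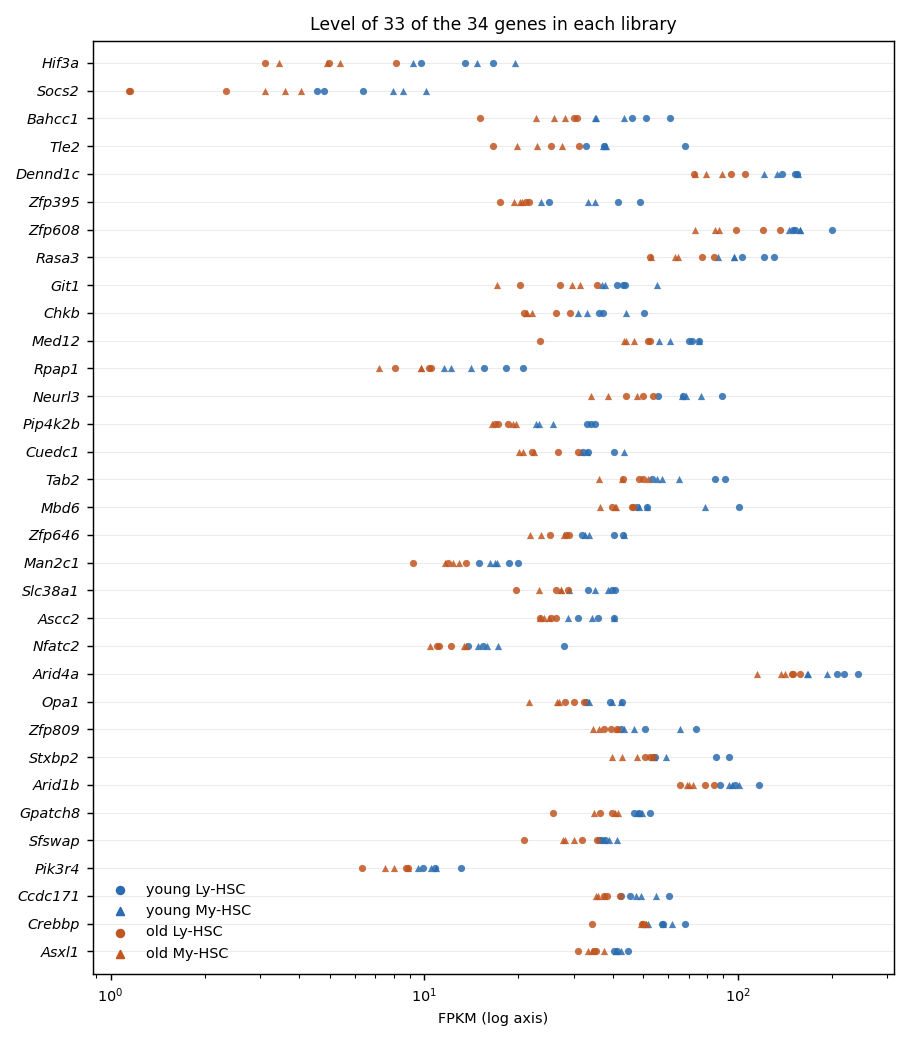
Level of 33 of the 34 genes (rows, ordered by the size of the age difference) in each of the 12 libraries, in FPKM on a log axis; circles are Ly-HSCs, triangles are My-HSCs, blue is young and orange is old. In every row all orange symbols lie to the left of all blue symbols, by construction; the means differ most for Hif3a and Socs2.

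Hif3a encodes a subunit of the hypoxia-inducible factor family, several forms of which restrain the other family members. It lies on chromosome 7 from 17031507 to 17062427 (GRCm38, minus strand). Hif3a was at 13.5, 9.78 and 16.6 FPKM in libraries 1, 2 and 3 of young Ly-HSCs, and young My-HSCs had 19.5, 9.24 and 14.8 FPKM. In old cells it was 3.11, 4.99 and 8.14 FPKM in Ly-HSCs and 3.44, 4.92 and 5.41 FPKM in My-HSCs. The means were 13.3 ± 3.42 FPKM in young Ly-HSCs, 14.5 ± 5.11 in young My-HSCs, 5.41 ± 2.54 in old Ly-HSCs and 4.59 ± 1.03 FPKM in old My-HSCs (SD, n = 3 each). The young mean was 2.78 times the old over both subsets, 2.46 times in Ly-HSCs and 3.16 times in My-HSCs, and old Ly-HSC library 3 came closest to the young values.

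Socs2 encodes a suppressor of cytokine signalling, induced by STAT5 and acting as a brake on JAK-STAT signals. It lies on chromosome 10 from 95385362 to 95417180. The values were 4.78, 6.38 and 4.56 FPKM in young Ly-HSCs, 10.1, 8.58 and 7.94 FPKM for young My-HSCs, 1.15, 1.15 and 2.34 in old Ly-HSCs and 3.59, 3.11 and 4.04 FPKM in old My-HSCs. All 3 My-HSC libraries exceeded all 3 Ly-HSC libraries at each age, so the groups ran in the order young My-HSCs, young Ly-HSCs, old My-HSCs and old Ly-HSCs with no overlap between neighbours. The means were 5.24 ± 0.992, 8.89 ± 1.14, 1.55 ± 0.685 and 3.58 ± 0.464 FPKM for young Ly-HSCs, young My-HSCs, old Ly-HSCs and old My-HSCs (SD, n = 3 each). The young mean was 2.76 times the old over both subsets, and the ratio was 3.39 times in Ly-HSCs and 2.48 times in My-HSCs.

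Chromatin and transcription regulators are described first, a grouping made after the members were known. Bahcc1, whose protein reads a repressive histone H3 mark through its BAH domain, lies on chromosome 11 from 120232947 to 120292296. It stood at 60.9, 51.2 and 46.2 FPKM in young Ly-HSCs, 35.4, 35.2 and 43.5 FPKM for young My-HSCs, 15.1, 30.1 and 30.7 in old Ly-HSCs and 25.9, 22.8 and 28.1 FPKM in old My-HSCs. Young Ly-HSCs stood above the 3 other groups without overlap, and old Ly-HSC library 1 was far below the rest. Tle2, a Groucho corepressor that transcription factors recruit to silence targets, stood at 67.8, 32.9 and 37.4, then 37.4, 37.97 and 37.8 FPKM in the young libraries of Ly-HSCs and My-HSCs. In the old it stood at 16.6, 25.5 and 31.3, then 27.5, 19.8 and 22.9 FPKM. The mean young level was 1.78 times the old for Bahcc1 and 1.75 times for Tle2.

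The sequences just before the start sites of Hif3a, Bahcc1 and Tle2, the members of the largest differences among those with a promoter in the RefSeq table (GRCm38.p6), are shown for the motifs they hold. Each is the 250 bases upstream of the RefSeq start, 5′ to 3′ on the gene's strand, with matches to CCAAT and GGGCGG (either strand) in capitals. They lie at chr7:17062428-17062677 (minus strand), chr11:120232697-120232946 (plus strand) and chr10:81575037-81575286 (plus strand).
Hif3a: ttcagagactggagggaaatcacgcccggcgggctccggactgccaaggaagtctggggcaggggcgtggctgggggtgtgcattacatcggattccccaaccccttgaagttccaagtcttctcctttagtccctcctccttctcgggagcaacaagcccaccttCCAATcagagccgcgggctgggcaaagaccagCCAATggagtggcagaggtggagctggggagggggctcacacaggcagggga
Bahcc1: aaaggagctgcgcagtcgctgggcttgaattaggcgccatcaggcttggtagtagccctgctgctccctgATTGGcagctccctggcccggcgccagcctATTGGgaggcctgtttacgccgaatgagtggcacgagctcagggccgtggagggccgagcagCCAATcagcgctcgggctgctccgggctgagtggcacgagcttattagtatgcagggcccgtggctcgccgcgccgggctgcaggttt
Tle2: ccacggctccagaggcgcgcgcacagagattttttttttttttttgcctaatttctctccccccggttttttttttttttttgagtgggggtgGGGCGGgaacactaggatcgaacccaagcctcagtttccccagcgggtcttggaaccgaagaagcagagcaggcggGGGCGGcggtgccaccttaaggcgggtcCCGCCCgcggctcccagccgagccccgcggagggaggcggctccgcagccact
The Hif3a window holds 2 CCAAT boxes and no GC box (GGGCGG), the Bahcc1 window 3 CCAAT boxes and no GC box, and the Tle2 window 3 GC boxes and no CCAAT box.

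Med12, a subunit of the Mediator kinase module on the X chromosome (101274030 to 101297465), had young values of 69.8, 71.3 and 75.3 FPKM in Ly-HSCs and 75.1, 56.3 and 60.7 FPKM in My-HSCs. The old values were 23.4, 52.0 and 52.4 FPKM in Ly-HSCs and 44.2, 43.4 and 46.9 FPKM in My-HSCs, so the young mean was 1.56 times the old. Arid4a, a partner of the retinoblastoma protein and of the SIN3 corepressor, was the most abundant member. It stood at 242, 208 and 218 FPKM in young Ly-HSCs, 167, 192 and 168 FPKM for young My-HSCs, 158, 149 and 151 in old Ly-HSCs and 142, 116 and 137 FPKM in old My-HSCs, 1.4 times higher on average in the young. In this gene Ly-HSCs lay above My-HSCs without overlap at each age.

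Crebbp, Arid1b and Asxl1 were among the members with the smallest differences. Crebbp, a histone acetyltransferase, stood at 57.6, 68.1 and 57.3 and at 61.6, 51.7 and 57.7 FPKM in young Ly-HSCs and My-HSCs. In old cells it stood at 34.3, 49.7 and 49.96 and at 50.9, 51.1 and 49.2 FPKM. Arid1b, a DNA-binding subunit of BAF complexes, ran from 87.8 to 117 FPKM with a median of 97.2 in the young libraries and from 65.6 to 84.0 with a median of 71.1 in the old. Asxl1, the partner of the deubiquitinase BAP1, ran from 40.2 to 44.8 FPKM with a median of 41.1 in the young and from 31.1 to 37.4 with a median of 34.7 in the old. The young mean was 1.24 times the old for Crebbp, 1.35 times for Arid1b and 1.21 times for Asxl1, and the spread within each age was small enough to keep the ages apart. Mbd6, a methyl-CpG-binding-domain protein of the same deubiquitinase assembly as ASXL1, ran from 47.8 to 101 FPKM (median 51.5) in the young and from 36.5 to 46.4 FPKM (median 40.8) in the old.

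Genes with a zinc finger protein (Zfp) name were 4 of the members. Zfp608 stood at 150, 201 and 153 FPKM in young Ly-HSCs, 158, 146 and 158 FPKM for young My-HSCs, 121, 98.7 and 136 in old Ly-HSCs and 73.1, 87.5 and 84.7 FPKM in old My-HSCs, so the old subsets were separate and the young subsets overlapped. Zfp395 ran from 23.7 to 48.9 FPKM (median 34.2) in the young and from 17.5 to 21.6 (median 20.4) in the old. Zfp809, which recruits silencing machinery to retroviral primer binding sites, ran from 42.5 to 73.8 FPKM (median 48.6) in the young and from 34.6 to 41.3 (median 38.5) in the old. Zfp646 ran from 31.8 to 43.4 FPKM (median 37.0) in the young against 21.8 to 29.0 (median 26.5) in the old. Only Zfp608 of these 4 lay above 100 FPKM in every young library.

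Nfatc2, a calcineurin-dependent transcription factor, ran from 13.8 to 27.9 FPKM (median 15.6) in the young and from 10.5 to 13.6 FPKM (median 11.7) in the old. Its highest value, in young Ly-HSC library 1, lay well above the other young libraries. Members that act on RNA were Rpap1, a factor for RNA polymerase II assembly, Sfswap, a splicing regulator, Gpatch8, a G-patch protein, and Ascc2, a ubiquitin-binding subunit of a complex that acts in repair and on stalled ribosomes. Rpap1 ran from 11.5 to 20.6 FPKM in the young and from 7.19 to 10.5 FPKM in the old, and Sfswap from 36.1 to 41.1 and from 20.8 to 35.5 FPKM. Gpatch8 had the tight young range of 46.9 to 52.7 FPKM against 25.8 to 41.6 FPKM in the old, and Ascc2 ran from 28.9 to 40.3 against 23.4 to 26.3 FPKM. Young means were 1.31 to 1.66 times the old means in these 4 genes.

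Signalling members covered Ras, phosphoinositide, Arf and TAK1 pathways. Rasa3, a GTPase-activating protein for Ras and Rap1, stood at 131, 121 and 103 FPKM in young Ly-HSCs, 86.9, 97.5 and 97.8 FPKM for young My-HSCs, 52.4, 77.2 and 84.4 in old Ly-HSCs and 52.9, 64.6 and 63.2 FPKM in old My-HSCs. Library 1 was the lowest of its group in both old subsets. Pip4k2b, a kinase for phosphatidylinositol 5-phosphate, stood at 35.01, 33.0 and 34.02 FPKM in young Ly-HSCs, with 23.2, 25.8 and 22.8 FPKM for young My-HSCs. The old values were 18.6, 16.9 and 17.2 FPKM in Ly-HSCs and 16.5, 19.2 and 19.7 FPKM in My-HSCs. Young Ly-HSCs thus stood apart from young My-HSCs in Pip4k2b while the old subsets overlapped, and the young mean was 1.94 times the old in Ly-HSCs and 1.3 times in My-HSCs.

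Git1, an Arf GTPase-activating scaffold, ran from 36.9 to 55.5 FPKM (median 42.2) in the young and from 17.1 to 35.7 (median 28.4) in the old. Tab2, the adaptor that ties the kinase TAK1 to ubiquitin chains, ran from 53.3 to 91.1 (median 61.3) and from 36.1 to 51.7 FPKM (median 45.8). Neurl3, a ubiquitin ligase of the Neuralized family, ran from 55.7 to 89.5 (median 67.6) and from 34.01 to 53.6 FPKM (median 46.0). For Cuedc1, which carries a ubiquitin-binding CUE domain, the ranges were 31.6 to 43.5 FPKM in the young and 20.1 to 30.9 FPKM in the old. These 4 genes were 1.5 to 1.6 times higher on average in the young libraries.

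Membrane traffic was represented by Dennd1c, Stxbp2 and Pik3r4. Dennd1c, an exchange factor for Rab GTPases on chromosome 17 (57065905 to 57078514), stood at 138, 154 and 153 FPKM in young Ly-HSCs, and young My-HSCs had 156, 133 and 121 FPKM. It stood at 72.4, 106 and 95.4 FPKM in old Ly-HSCs and 88.9, 73.1 and 79.1 FPKM in old My-HSCs, 1.66 times higher on average in the young. Stxbp2, which guides syntaxins in granule release, ran from 53.9 to 93.9 FPKM in the young and from 39.9 to 53.6 FPKM in the old, where 2 young Ly-HSC libraries set the upper end. Pik3r4, the regulatory subunit of the class III phosphatidylinositol 3-kinase, ran from 9.55 to 13.1 and from 6.35 to 8.89 FPKM.

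Metabolic, mitochondrial and other genes completed the set. Chkb, choline kinase beta, ran from 31.0 to 50.1 FPKM in the young and from 20.8 to 29.2 in the old, and 50.7% of its annotated exon bases are shared with a same-strand gene model, so its reads may be split. Slc38a1, a glutamine transporter, ran from 29.0 to 40.7 against 19.6 to 28.8 FPKM. Man2c1, a cytosolic mannosidase, ran from 15.0 to 19.98 against 9.24 to 13.6 FPKM. The inner-membrane fusion GTPase Opa1 ran from 32.9 to 42.8 against 21.6 to 32.5 FPKM, with a larger ratio in My-HSCs (1.55) than in Ly-HSCs (1.27). Ccdc171, a coiled-coil protein, ran from 42.4 to 60.4 against 35.2 to 42.3 FPKM.

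The age difference was present in both subsets in all 34 genes and differed in size between them without a fixed direction. On the log2(FPKM + 1) scale, old minus young had a median over the members of -0.57 in Ly-HSCs and -0.49 in My-HSCs. Over the 10900 genes tested the medians were 0.18 and 0.066. Over those with a mean young level of at least 5 FPKM they were 0.091 and 0.011. The difference was larger in Ly-HSCs for 21 members and larger in My-HSCs for 13. These differences come from the values that chose the members, so the sizes in the subsets are set side by side with no test. The count of 13 was 17 without old Ly-HSC library 1, without all libraries numbered 1 and after quantile normalization. It was 8 without young My-HSC library 1. Without all libraries numbered 1, the medians were -0.42 in Ly-HSCs and -0.46 in My-HSCs. Over all genes tested, old minus young was higher in My-HSCs than in Ly-HSCs for 42.8%, as in those 21 members. Pip4k2b was lower in old cells by 0.92 in Ly-HSCs and 0.36 in My-HSCs, and Bahcc1 by 1.09 and 0.55. Zfp608 was lower by 0.50 in Ly-HSCs and 0.91 in My-HSCs, and Neurl3 by 0.49 and 0.81.

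**Figure D2:**
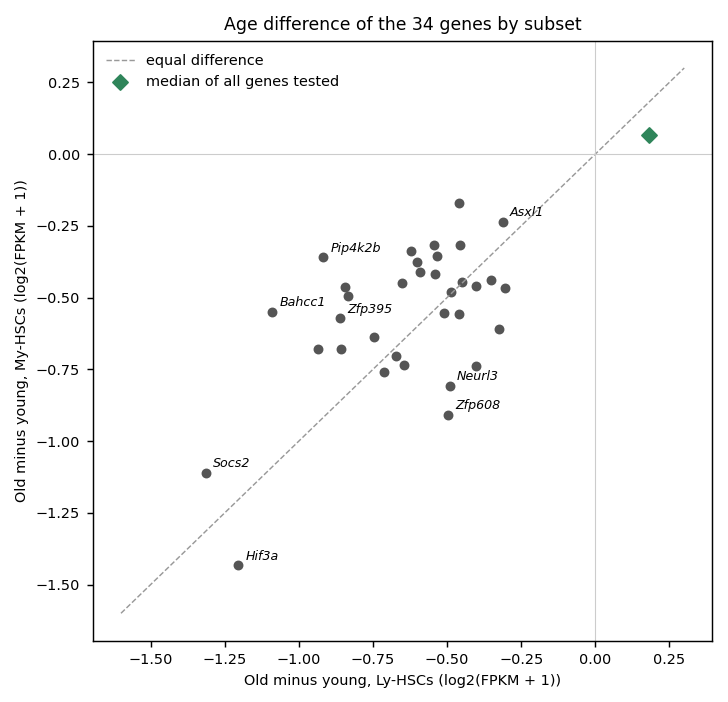
Age difference (mean old minus mean young, log2(FPKM + 1)) of each of the 34 genes (grey points) in Ly-HSCs (x axis) and My-HSCs (y axis), with the line of equal difference and the median of all 10900 genes tested (green diamond). Every member lies below 0 on both axes, by construction; 21 lie above the dashed line, with the larger difference in Ly-HSCs.

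The subset difference, My-HSCs minus Ly-HSCs, was tested in a limma fit over all genes. It is not independent of the choice of members: since every old library of both subsets had to lie below every young library of both, a gene whose subsets differed by more than the ages did could not be a member. The members' counts are therefore given beside those of all genes with nothing read from the comparison. Averaged over both ages, 0 of the 34 members passed at an adjusted p under 0.05 (4 had an unadjusted p under 0.05), where 0.413% of the 10900 genes tested passed (0.321% higher and 0.0917% lower in My-HSCs) and 11.2% had an unadjusted p under 0.05. In young cells 0 members passed (2 with an unadjusted p under 0.05), beside 0.119% of genes tested, all higher in My-HSCs, and 13.8% with an unadjusted p under 0.05. In old cells 0 passed (1 with an unadjusted p under 0.05), beside 0.0275% (0.0183% higher and 0.00917% lower in My-HSCs) and 4.03% with an unadjusted p under 0.05. Of the 34 members, 27 were lower in My-HSCs on average, with a median difference of -0.099, while 58.1% of all genes tested were higher in My-HSCs, with a median of 0.084. That count of 27 was 22 with quantile normalization and 31 without old Ly-HSC library 1.

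Arid4a had the smallest p for the subset difference, at -0.28 (95% interval -0.49 to -0.066, limma adjusted p = 0.274), with all 6 My-HSC libraries below the Ly-HSC libraries of their age. Zfp608 stood at -0.32 (-0.58 to -0.057, limma adjusted p = 0.328), with -0.11 in young cells (-0.48 to 0.26, limma adjusted p = 0.813) and -0.52 in old cells (-0.89 to -0.15, limma adjusted p = 0.749). Socs2 was the member with the largest positive difference, 0.77 (0.14 to 1.41, limma adjusted p = 0.330). Stxbp2 stood at -0.35 (-0.67 to -0.040, limma adjusted p = 0.377). In young cells alone, Arid4a again had the smallest p, with a difference of -0.34 (-0.64 to -0.040, limma adjusted p = 0.299). Next by p were Pip4k2b at -0.49 (-0.95 to -0.032, limma adjusted p = 0.328) and Stxbp2 at -0.44 (-0.88 to 0.0006, limma adjusted p = 0.364). Bahcc1 followed at -0.46 (-1.04 to 0.12, limma adjusted p = 0.466). The subset differences of these genes therefore did not pass once adjusted over all genes.

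**Figure D3:**
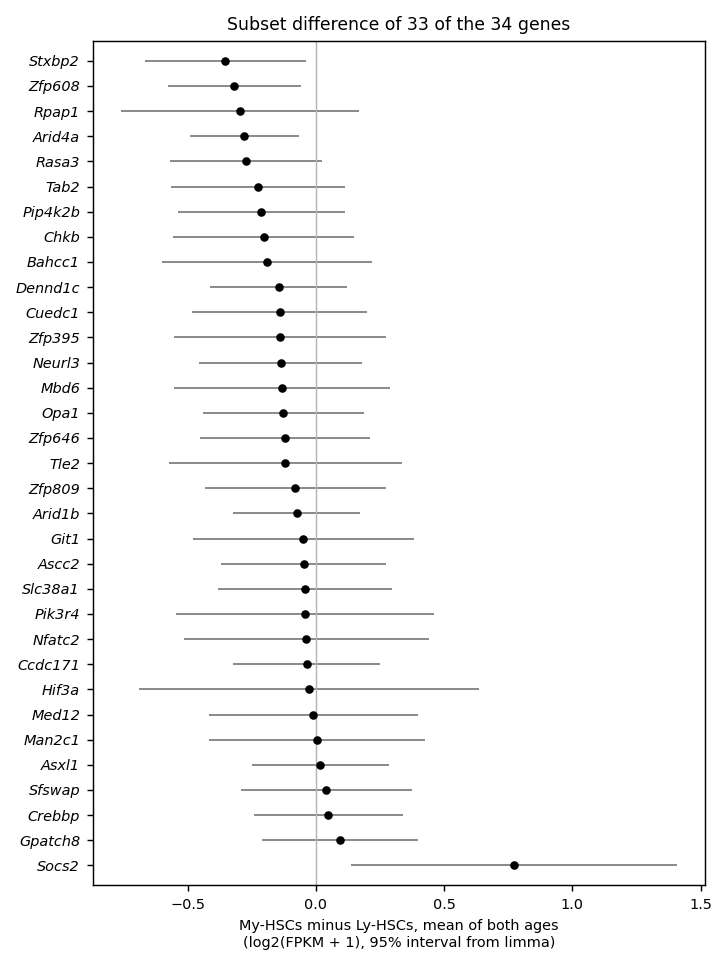
Difference between subsets (My-HSCs minus Ly-HSCs, mean of both ages, log2(FPKM + 1), x axis) for 33 of the 34 genes (rows), as the limma estimate (point) with its 95% interval (line). The intervals of 29 of these include 0; those of Stxbp2, Zfp608, Arid4a and Socs2 do not, before adjustment over all genes.

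The 12 libraries did not contribute evenly. Old Ly-HSC library 1 was the lowest old library in 18 of the 34 genes and old My-HSC library 1 in 11, together 29. Each of these libraries had the highest summed granulocyte, monocyte, erythroid and cell cycle markers of its group, though not the highest value of every marker. Old Ly-HSC libraries 2 and 3 were the highest old libraries in 22 genes. Among the young libraries, Ly-HSC library 1 was the highest in 16 genes. It also had the largest share of genes at 0, 34.1%, against 12.1% to 28.4% in the others. That share was higher in every young library than in every old library of the same subset. In My-HSCs it was 19.3% to 26.1% in the young and 12.1% to 18.2% in the old. In Ly-HSCs the old libraries, at 13.3% to 22.3%, lay below every young library. Whether this difference in genes at 0 bears on the age differences of the members was not tested. Centred on each gene's mean over all libraries, the median over members was -0.43 in old Ly-HSC library 1, -0.15 and -0.11 in old Ly-HSC libraries 2 and 3, and for old My-HSCs it was -0.35, -0.27 and -0.27 on the log2 scale. The young libraries lay at 0.46, 0.29 and 0.30 for Ly-HSCs and 0.26, 0.16 and 0.18 for My-HSCs.

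Without the 4 libraries numbered 1, all 34 genes were still lower in every remaining old library, as the rule requires of any subset of the libraries. The median difference between old and young was then -0.42, against -0.54 with them, and the mean young level was 1.14 to 2.58 times the old with a median of 1.35. Hif3a then stood at a ratio of 2.15, Socs2 at 2.58 and Bahcc1 at 1.58, against 2.78, 2.76 and 1.78 with all libraries. Mbd6 stood at 1.14 against 1.52, Tle2 at 1.47 against 1.75 and Med12 at 1.35 against 1.56. The ratio was higher without the libraries numbered 1 only in Chkb (1.69 against 1.65), Zfp608, Man2c1, Ascc2 and Arid4a. How much the other cells in these libraries bear on the size of the differences was not tested.

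**Figure D4:**
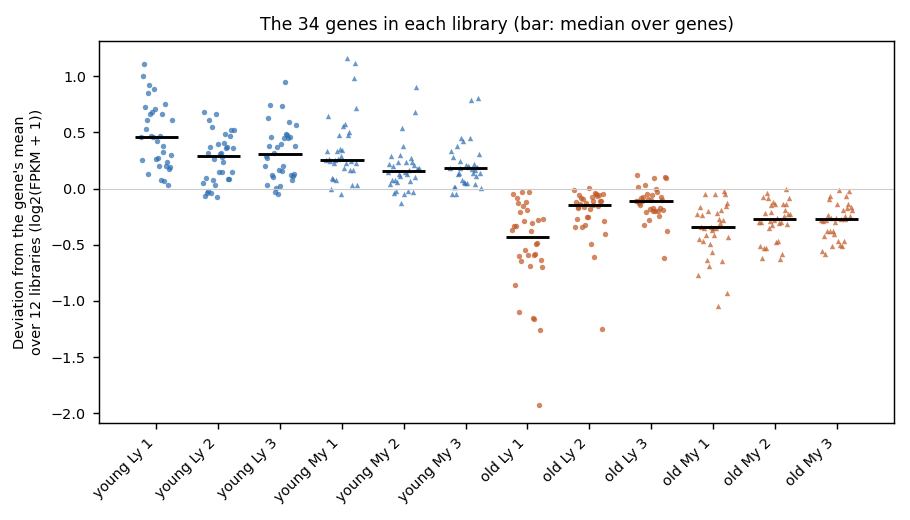
Deviation of each of the 34 genes (points) from its own mean over the 12 libraries, in log2(FPKM + 1), for each library (x axis), with the median over genes as a black bar; circles are Ly-HSCs, triangles My-HSCs, blue young and orange old. The medians of young libraries lie between 0.16 and 0.46 and those of old libraries between -0.43 and -0.11, with old Ly-HSC library 1 the lowest.

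Genes that act with the members, or belong to the same families, lay on both sides of 0. A list of 99 such partners was drawn up once the members were known, and 95 had values and passed the filter on low values. Of these, 0 were lower in every old library and 2, Socs3 and Rab13, were higher in every old library, beside 0.367% and 1.21% of all genes tested. On average 39 of the 95 were lower in old cells, where 37.3% of all genes tested were, with a median difference of 0.054 on the log2 scale. The partners named below were picked after their values were seen.

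Around Socs2, the related feedback inhibitor Socs3 went the other way. Socs3 stood at 4.46, 4.17 and 2.95 FPKM in young Ly-HSCs, while young My-HSCs had 0, 3.29 and 4.73 FPKM, against 22.5, 5.89 and 11.4 in old Ly-HSCs and 73.0, 19.0 and 32.5 FPKM in old My-HSCs, with library 1 the highest of each old subset. Cish, a further STAT5 target of this family, overlapped between the ages, with 11.4 to 37.3 FPKM in the young and 8.89 to 22.2 FPKM in the old. Among partners of Hif3a, the oxygen-regulated subunit Hif1a ran from 15.0 to 27.4 FPKM in the young and 19.9 to 33.8 FPKM in the old, and the prolyl hydroxylase Egln3 from 0.111 to 7.58 and from 3.68 to 29.0 FPKM. Both overlapped between the ages and had higher old means, by 0.29 and 1.65 on the log2 scale.

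In the Mediator kinase module, Med12 was lower in every old library while its binding partner Med13 ran from 18.9 to 37.6 FPKM in the young and from 30.9 to 42.1 FPKM in the old. The paralogue Med12l ran from 52.1 to 84.4 and from 44.99 to 82.1 FPKM. Ep300, the paralogue of Crebbp, ran from 33.0 to 55.4 FPKM in the young and from 31.7 to 40.7 FPKM in the old, with a mean difference of -0.16. The BAF ATPase Smarca4 ran from 96.0 to 144 and from 102 to 136 FPKM beside Arid1b, with a mean difference near 0. Bap1, beside Asxl1, ran from 2.86 to 38.9 and from 21.1 to 33.6 FPKM. In each of these complexes the ages overlapped for the partners named.

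A few partners came close to the pattern of the members. Nfatc1 ran from 21.3 to 52.9 FPKM in the young and from 17.9 to 24.6 FPKM in the old, a mean difference of -0.61 beside -0.48 for Nfatc2. Git2, the paralogue of Git1, ran from 32.1 to 50.3 and from 22.7 to 36.0 FPKM, with a mean difference of -0.46. The amino acid exchanger Slc1a5, beside Slc38a1, ran from 34.5 to 49.7 and from 15.5 to 39.6 FPKM, with a mean difference of -0.66. Polr2a, the large subunit of RNA polymerase II, beside Rpap1, ran from 51.5 to 122 and from 44.6 to 57.7 FPKM, with a mean difference of -0.51. Its young and old means were 94.2 and 53.2 FPKM in Ly-HSCs. In My-HSCs they were 61.3 and 51.4 FPKM, and there the ages overlapped.

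**Figure D5:**
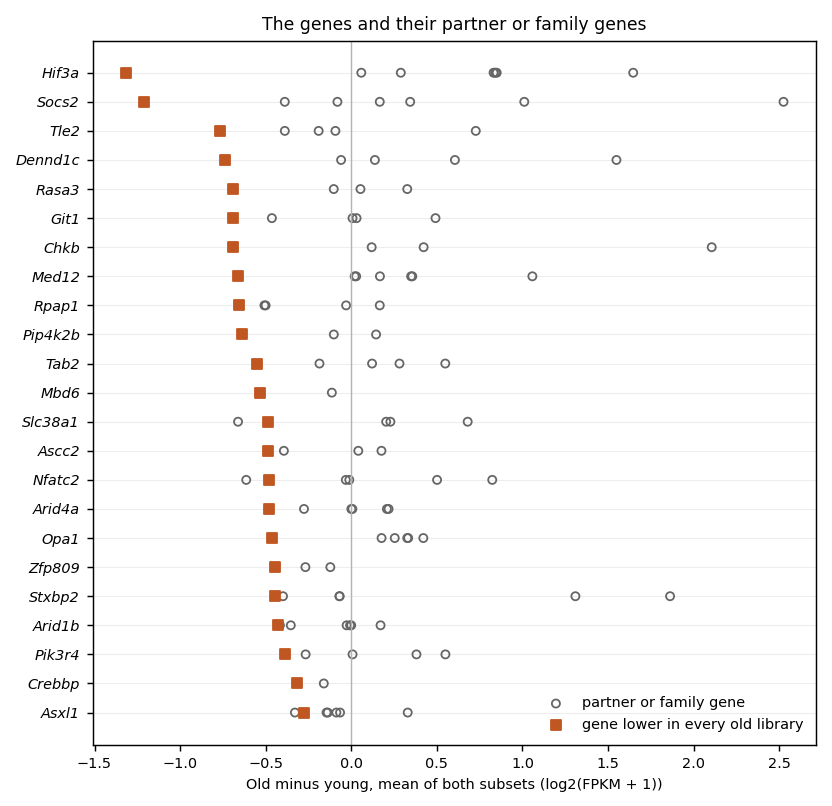
Age difference (mean old minus mean young over both subsets, log2(FPKM + 1), x axis) of the members that have listed partners (orange squares, 1 row each) and of their partner or family genes (open circles). The squares lie below 0 by construction; the circles lie on both sides of 0, and 37 of the 93 drawn are below it.

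The 12 gene lists for this tissue were drawn up with earlier results of these data known, so their counts are given as a description only. Among them, the chromatin and histone modifiers held the members that were on any list. Of its 40 genes tested, Arid1b, Crebbp and Asxl1 were lower in every old library and 0 were higher, beside 0.367% and 1.21% of all genes tested. The list had 26 of 40 genes lower in old cells on average, where 37.3% of all genes tested were, and a median difference of -0.17, against 0.13 over all genes. In the 11 other lists, no gene tested was lower in every old library. Those lists ran from a median of -0.040 for splicing and RNA processing genes and for HSC transcription factors to 0.32 for mitochondrial genes, of which 9 of 39 were lower on average. Genes higher in every old library were the formin Diaph1, the cytochrome oxidase subunit Cox6c, the lysosomal membrane protein Lamp2 and the pentose phosphate enzyme Taldo1.

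Annotated features of the members varied widely and are given as medians without a test. Their longest annotated transcripts ran from 1.8 to 11.3 kb with a median of 4.96 kb, against 3.53 kb among the tested genes with a mean young level of at least 5 FPKM, and they had 2 to 43 exon blocks with a median of 17 against 11. GC content of the longest transcript ran from 43.5% to 63.1% with a median of 52.8% against 49.4%. Mean young level, which the rule bounds from below, had a median of 41.8 FPKM against 17.1 FPKM. The spread within groups was 0.20 on the log2 scale against 0.48, and a rule that asks for no overlap selects genes of small spread. Whether level, length or spread bears on membership beyond that was not tested. The members lay on 16 chromosomes, with 6 of 34 (17.6%) on chromosome 11, which holds 8.2% of tested genes, and 4 (11.8%) on chromosome 10, which holds 4.79%.

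RefSeq promoter windows were matched by symbol for 26 of the 34 members and 8555 of the tested genes, and 10 motifs were searched on both strands of the 250 upstream bases. The GC box GGGCGG was present in 17 of 26 members (65.4%) and 64.6% of tested genes, and CCAAT in 11 (42.3%) and 40.7%. The ETS core CCGGAAG was present in 4 members (15.4%) and 16.1% of tested genes, and the E2F site TCCCGCC in 6 (23.1%) and 21.3%. E2F and GC box matches can overlap. The NRF1 core CATGCGC was found in 3 members (11.5%) against 6.64% and the TATA box TATAAA in 3 (11.5%) against 7.43%. The RUNX site TGTGGT was found in 2 members (7.69%) against 13.0%. The E-box CACGTG was found in 1 member (3.85%) against 9.92%. The erythroid-type site AGATAA, bound by GATA factors, was found in 1 member against 7.28%. The AP-1 site TGANTCA was found in 1 member against 5.19%. Over all 27025 genes of the RefSeq table, regardless of expression, the GC box was present in 35.4% and CCAAT in 37.5%. Promoter GC content had a median of 61% in members and 60% in tested genes.

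Genes near the limits of the rule show how sharp it is. Just inside were Ccdc171, with a lowest young value of 42.41 and a highest old value of 42.33 FPKM, Slc38a1 (28.99 and 28.83 FPKM) and Stxbp2 (53.9 and 53.6 FPKM). Just outside were Ehbp1l1 (35.4 and 35.8 FPKM), Rfx7 (28.96 and 29.3 FPKM) and Robo4 (16.4 and 16.6 FPKM). Robo4, a receptor by which HSCs attach to the vascular niche, had a mean of 21.9 FPKM in the young and 11.8 FPKM in the old. On the side of the level, Socs2, Pik3r4 and Hif3a were the members of lowest mean young level, at 7.06, 10.8 and 13.9 FPKM. Bsn, Zan and Lin28b were lower in every old library but had young means of 3.45, 2.97 and 2.45 FPKM. Lin28b, an RNA-binding protein of fetal HSCs, was listed at 4.86, 1.93 and 0.825 FPKM in young Ly-HSCs, 1.599, 3.35 and 2.12 FPKM for young My-HSCs, 0, 0.251 and 0 in old Ly-HSCs and 0.068, 0.352 and 0.008 FPKM in old My-HSCs.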

How the data were processed

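RNA of the 12 libraries was prepared with a stranded mRNA kit and sequenced in pairs, per the labels' protocols. The deposited values are FPKM per gene, 1 table for all libraries. The submitters' processing notes name bcl2fastq 2.17, STAR and DESeq2 with GRCm38 (mm10). No source used here names the counter, annotation or strand setting, so reads shared by overlapping genes cannot be assigned. Depth is unknown from FPKM.

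The members, gene lists, partners and named genes were chosen with earlier results of these data known. Subset differences were tested with limma 3.58.1 (R 4.3.3) on log2(FPKM + 1), with an intensity trend and 1 mean per group, over 10900 genes with at least 1 FPKM in at least 3 libraries, adjusted by Benjamini-Hochberg over all of them (two-sided). The difference between the subsets' age differences was fitted too, but it uses the values that chose the members, so no test of it is given. A fold on this scale understates the change of low genes. The script was tested on simulated data. Named genes were the 24 members of largest age difference, the 6 of highest young level, the 4 of smallest p per comparison, list members and genes at the limits; 1 member is counted but not reported here. Gene coordinates came from GENCODE M21. Alternatives covered the pseudocount, the filter, scaling, TPM, weights, the replicate block and leaving libraries out. Same-numbered old libraries of the 2 subsets deviated together (correlations 0.256, 0.233 and 0.210) and the young did not (0.0482, 0.0026 and 0.00233).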

Additional observations from a re-analysis of the deposited data

How the results depend on the processing

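Without the genes left out by name, 34 genes met the rule, and the number was 37 and 33 with a minimum young mean of 2 and 10 FPKM, 41 after quantile normalization (25 of the 34 members among them), 48 as TPM and 56 with median-of-ratios scaling. Leaving out 1 library gave 38 to 72 genes, and leaving out all libraries numbered 1, chosen after seeing the data, gave 208. These settings ask less of a gene when they use fewer libraries. With the replicate block, as lower in every same-numbered pair, 261 genes met it. The replicate block left the members called at 0 in each comparison between subsets, as did every other setting run. All 34 members were lower on average in old cells under each scaling. Of the members' recomputed age differences, 606 stayed within 1 SD, 6 moved further and none reversed. The rule fixes the sign when libraries are left out or the pseudocount changes, so only a change of scaling could reverse one. Among the 6, Socs2 was -1.52 with a pseudocount of 0.1, -0.67 with 5, -1.64 after quantile normalization and -1.50 as TPM, against -1.21. With 3 libraries a group and no counts, small differences between subsets could not be resolved. The rule also kept out genes whose subsets differed by more than the ages did. Averaged over both ages, 0.413% of all genes tested passed. The count of 0 members and its stability across settings are therefore given with nothing read from them.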
